A study of Mus musculus with 5 samples.

Results

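The genes described here are 42 genes of DNA replication and mitosis, taken by symbol from a list of cell cycle and proliferation genes, out of 27843 genes in the deposited count table. All 42 were matched, and all 42 passed the filter on low counts. They were measured in lymphatic endothelial cells (LECs), which line the lymph-carrying sinuses of lymph nodes, sorted from 8-week-old mice on the C57BL/6 background as cells lacking CD45 and TER119 and carrying CD31 and podoplanin. The 3 control libraries came from Rankl flox/flox mice, and the 2 knockout libraries from littermates that carried Ccl19 Cre as well as Rankl flox/flox. Both groups therefore have floxed alleles of Rankl, the gene (Tnfsf11) of a cytokine that LECs receive through RANK, and the labels call the deletion stromal. The Ccl19 promoter is active chiefly in fibroblastic reticular cells, and whether Cre also acted in the sorted LECs was not tested. Tnfsf11 had 27, 13 and 9 reads in the controls, 9 in knockout 1 and 0 in knockout 2, too few in these cells to check the deletion. The number of mice behind each library is not given, so p-values measure only the spread between these 5 libraries, which may be technical.

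A cell that divides first loads the MCM helicase onto replication origins, then copies its DNA with enzymes that make nucleotides and with the sliding clamp PCNA, and finally builds a spindle under the control of cyclin B with CDK1, Polo and Aurora kinases. Many of these genes are transcribed chiefly, though not all of them only, in cycling cells. E2F factors drive the S-phase set, and the MuvB complex with B-MYB and FOXM1 drives the G2/M set. LECs of a resting lymph node are mostly quiescent, and they expand when the node grows during an immune response. In RNA from a sorted pool, fewer dividing cells and less of each transcript per dividing cell cannot be told apart.

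Upstream sequences are shown because the 2 sets hold known cell cycle motifs at different shares. RefSeq (build GRCm38.p6) lists a start for 34 of the 42 genes, and the 250 bases before each start were searched on both strands. The CCAAT box (CCAAT) was present in 16 of 19 genes of G2 and mitosis (84.2%) and in 8 of 15 genes of licensing, S-phase entry and DNA synthesis (53.3%), against 37.5% of all 27025 genes with a listed start. The CHR element (TTTGAA) was present in 8 of the 19 (42.1%) and in 1 of the 15 (6.67%), against 18.3% of all genes. E2F sites (TTTCCCGC, TTTCGCGC, TTTGGCGC or TTTGCCGC) were present in 1 of the 19 (5.26%) and in 5 of the 15 (33.3%), against 2.16% of all genes. A gene with several starts was counted once if any of them held the motif, E2F sites can overlap each other, and a match is a description of letters and not a tested binding site.

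Of 4 genes on which the results below turn or which show the contrast between the sets, the 250 bases before the start are printed 5′ to 3′ on the gene's strand, with matches to these motifs in capitals. The regions are chr2:118597961-118598210, plus strand for Bub1b, chr7:122159185-122159434, plus strand for Plk1, chr11:99024190-99024439, minus strand for Top2a, and chr1:128359706-128359955, minus strand for Mcm6. Top2a holds 6 CCAAT boxes and 2 CHR elements, and Mcm6 holds 3 E2F sites, of which a pair overlaps, and 2 CCAAT boxes. Bub1b and Plk1 each hold 1 CCAAT box, 113 and 14 bases before the start.
Bub1b: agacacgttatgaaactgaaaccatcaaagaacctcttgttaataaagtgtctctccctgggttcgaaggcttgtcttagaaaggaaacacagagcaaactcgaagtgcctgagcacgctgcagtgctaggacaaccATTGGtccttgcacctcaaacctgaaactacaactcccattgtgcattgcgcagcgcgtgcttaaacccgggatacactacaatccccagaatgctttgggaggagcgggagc
Plk1: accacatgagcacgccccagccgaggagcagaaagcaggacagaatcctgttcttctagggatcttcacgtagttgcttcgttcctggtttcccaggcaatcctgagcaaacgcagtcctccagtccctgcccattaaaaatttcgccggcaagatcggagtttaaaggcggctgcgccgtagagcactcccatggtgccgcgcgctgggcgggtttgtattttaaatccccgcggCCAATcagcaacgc
Top2a: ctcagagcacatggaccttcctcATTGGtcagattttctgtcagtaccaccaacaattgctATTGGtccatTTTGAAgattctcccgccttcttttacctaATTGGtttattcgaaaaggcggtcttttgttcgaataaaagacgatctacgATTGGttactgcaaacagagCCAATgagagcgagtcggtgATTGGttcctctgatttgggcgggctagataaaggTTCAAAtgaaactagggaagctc
Mcm6: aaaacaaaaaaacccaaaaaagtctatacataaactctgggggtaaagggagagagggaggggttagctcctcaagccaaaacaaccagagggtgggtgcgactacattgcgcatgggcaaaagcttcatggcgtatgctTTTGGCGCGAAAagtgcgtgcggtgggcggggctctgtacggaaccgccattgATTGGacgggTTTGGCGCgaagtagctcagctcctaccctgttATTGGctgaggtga

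Library totals were 52839375 to 70171307 counts. Levels are given as CPM (counts scaled to library size with TMM factors), and 1 CPM stood for 52.0 to 71.0 reads. Knockout 2 had the fewest genes with a read (20359, against 21002 to 21933 in the other libraries). On the second principal component it lay at 40.9 and knockout 1 at -60.7, with the controls between 2.15 and 14.5. Of the cell types the sort could hold, T and NK cell markers (8 genes) summed to 2.44 to 3.14 CPM in controls and 1.75 to 4.64 CPM in knockouts, B cell markers (7 genes) to 10.8 to 20.9 and 23.9 to 30.4 CPM, and myeloid markers (9 genes) to 14 to 19.3 and 8.4 to 11.1 CPM. Of the myeloid markers Csf1r and Mpeg1 were lower and Adgre1 higher in knockout. Cd3e, Cd4, Cd8a, Pax5, Itgam and Adgre1 were under 1 CPM in every library, and Ly6g had no read. Of 10 blood endothelial markers 7 were higher and 1 lower in knockout, although Kdr and Plvap, which LECs also express, make up most of their sum (4550 to 4990 CPM in controls, 4340 to 5190 CPM in knockouts). Fibroblast and pericyte markers (9 genes, 1 higher) summed to 84.4 to 163 CPM in controls and 214 and 101 CPM in knockouts 1 and 2. The 4 leukocyte markers summed to at most 20.6 CPM in controls and 20.9 CPM in knockouts. The 6 erythroid markers summed to 0.513 to 2.14 CPM in controls and to 4.22 and 0.0344 CPM in knockouts 1 and 2. Of 8 LEC markers 2 were higher (Ccl21a and Mmrn1) and 1 lower (Prox1), and their sum was 9190 to 10300 CPM in controls and 9750 to 11600 CPM in knockouts. Prox1 stood at 1384 to 1577 CPM in controls and at 884 and 852 CPM in knockouts 1 and 2, Ccl21a at 34 CPM or less in controls and at 661 and 142 CPM, and Reln, which did not pass the test, at 87.6 to 155.9 CPM and at 232 and 52.6 CPM. The part of these cell types in the results below was not tested.

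Of the 42 cell cycle genes, 1 passed the test between knockout and control: Bub1b, which encodes the spindle checkpoint kinase BUBR1, fell in both knockout libraries to below every control. Of the 18 genes of licensing, S-phase entry and DNA synthesis, 3 had both knockouts above all controls (16.7%) and 5 had both below (27.8%). Of the 24 of G2 and mitosis, 2 were above (8.33%) and 6 below (25.0%), Bub1b among them. Among all genes tested, 22.8% were above and 22.5% below. By the edgeR quasi-likelihood test at an adjusted p under 0.05, 0 of the 42 were higher and 1 was lower (2.38%), against 3.25% higher and 3.99% lower among all 15874 genes tested (7.24% in either direction), so the share called was below that of all genes. At an unadjusted p under 0.05, 3 were higher (7.14%, against 12.8% of all genes) and 6 lower (14.3%, against 13.6%). DESeq2 called 3 higher (Cdt1, Pcna and Tyms; 7.14%, against 7.9% of all genes) and 4 lower (Bub1b, Mcm2, Mki67 and Top2a; 9.52%, against 9.24%). The median log2 fold change, knockout minus control, was -0.13 over the 42 genes and 0.00 over all genes tested, and 29 of the 42 were negative.

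**Figure D1:**
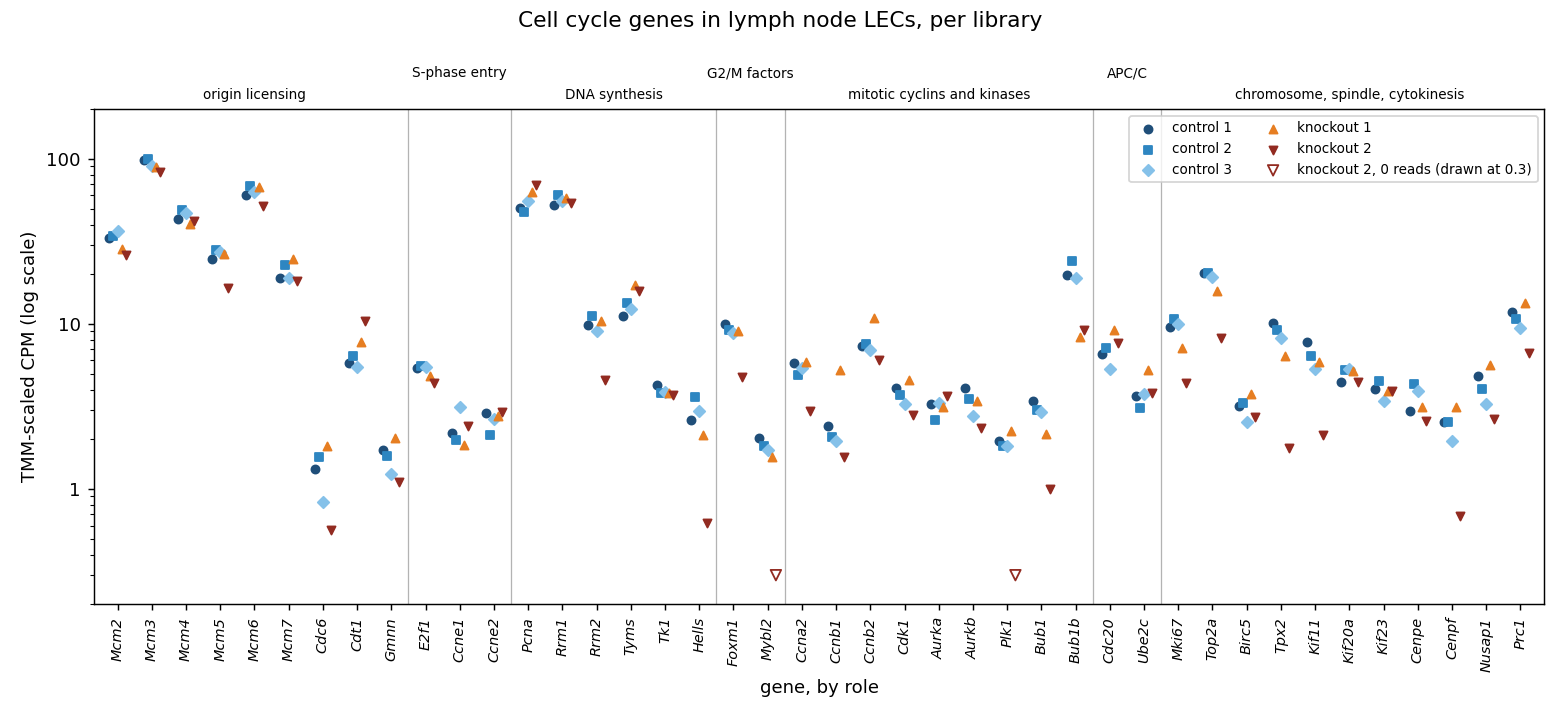
TMM-scaled CPM (vertical axis, log scale) of the 42 cell cycle genes, ordered by role, with 1 point per library for 3 controls and 2 knockouts. Knockout 2 lies lowest for most genes of mitosis, with 0 reads of Mybl2 and Plk1 (open triangles), while Bub1b is low in both knockouts.

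Among the origin licensing genes, MCM subunits had high levels per length and Cdc6 a low one (0.237 CPM per kb in controls). Mcm3, a subunit of the MCM2-7 helicase, had the highest level per kilobase of exon of the 42 genes, at 25.7 CPM per kb in controls, ahead of Pcna at 21.3, Mcm6 at 13.7 and Mcm4 at 12.9 CPM per kb. The lowest was the kinetochore gene Cenpf at 0.152 CPM per kb. In the order control 1, control 2, control 3, knockout 1 and knockout 2, which the lists of 5 values below also follow, Mcm3 stood at 98.3, 99.6, 90.8, 89.2 and 83.0 CPM. Both knockouts lay below all controls, by little: the log2 fold change was -0.16 ± 0.09 (SE) and the adjusted p 0.299 (edgeR, as for the values that follow). Mcm2, another helicase subunit, stood at 33.3, 33.98, 36.7, 28.5 and 26.01 CPM (log2 fold change -0.35 ± 0.10, adjusted p = 0.0819), again with both knockouts below all controls. Mcm4 stood at 43.5, 48.7, 47.1, 40.3 and 41.9 CPM (log2 fold change -0.18 ± 0.09, adjusted p = 0.274). Mcm6 stood at 60.1, 68.9, 62.8, 68.0 and 52.1 CPM, so that knockout 1 lay within the controls and knockout 2 below them (log2 fold change -0.09 ± 0.13, adjusted p = 0.72).

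Of the other 5 licensing genes, Mcm5 and Mcm7 had log2 fold changes of -0.31 ± 0.20 and 0.08 ± 0.16, and Cdc6, which loads the helicase, and Gmnn, which encodes the licensing inhibitor geminin, had -0.07 ± 0.54 and 0.04 ± 0.36. Cdt1, which brings the helicase to origins and is held in check by geminin, went the other way. It stood at 5.79, 6.39, 5.50, 7.82 and 10.4 CPM, above all controls in both knockouts (log2 fold change 0.63 ± 0.18, adjusted p = 0.0794). With 23.3% of its 50-base words shared with other annotated transcripts, the level of Mcm7 is uncertain.

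The genes of S-phase entry showed little difference. E2f1, the transcription factor that switches on S-phase genes, stood at 5.42, 5.58, 5.45, 4.86 and 4.40 CPM (log2 fold change -0.24 ± 0.17, adjusted p = 0.4), slightly below the controls in both knockouts. Cyclin E genes, whose products activate CDK2, overlapped between groups. Ccne1 stood at 2.169, 1.99, 3.14, 1.84 and 2.39 CPM, and Ccne2 at 2.90, 2.13, 2.66, 2.76 and 2.94 CPM (log2 fold changes -0.20 ± 0.30 and 0.15 ± 0.24).

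Among DNA synthesis genes, the sliding clamp gene Pcna stood at 50.1, 47.8, 55.7, 62.7 and 69.4 CPM. Both knockouts lay above all controls, and the log2 fold change of 0.37 ± 0.10 missed the threshold (adjusted p = 0.0748). Thymidylate synthase, Tyms, which makes dTMP, had the same pattern at 11.2, 13.4, 12.4, 17.2 and 15.9 CPM (log2 fold change 0.42 ± 0.13, adjusted p = 0.0921). Rrm1, the large subunit of ribonucleotide reductase, stood at 52.5, 60.7, 55.9, 57.8 and 54.1 CPM, with overlapping groups (log2 fold change -0.01 ± 0.10). Its small subunit Rrm2, which is made in S phase, stood at 9.83, 11.2, 9.10, 10.5 and 4.57 CPM, so that knockout 1 was like the controls and knockout 2 at 45.6% of their mean. The chromatin remodeller gene Hells was lower in both knockouts and lowest in knockout 2, at 2.61, 3.62, 2.98, 2.12 and 0.619 CPM (log2 fold change -1.17 ± 0.50, adjusted p = 0.196). Tk1, thymidine kinase, had a log2 fold change of -0.07 ± 0.19. Pcna shares 19.1% of its 50-base words with other annotated transcripts, chiefly the pseudogene Pcna-ps2.

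The G2/M transcription factors were lowest in knockout 2. Foxm1 stood at 9.97, 9.245, 8.76, 9.004 and 4.76 CPM (log2 fold change -0.44 ± 0.27, adjusted p = 0.343). Mybl2, which encodes B-MYB, had 145, 113, 89 and 86 reads in the controls and knockout 1 and 0 in knockout 2. A count of 0 allows up to 0.0516 CPM there (3 reads, counting error only), or 2.78% of the control mean of 1.86 ± 0.169 CPM (SD, n = 3). Whether the 0 is a measured level or comes from how reads were counted was not tested, here and for Plk1 below. The fitted log2 fold change of -1.25 ± 1.19 averages over knockout libraries that differ this much, and 19.3% of the 50-base words of Mybl2 occur in other annotated transcripts.

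The mitotic kinase gene past the threshold was Bub1b. It stood at 19.8, 24.0, 18.9, 8.33 and 9.16 CPM, with group means of 20.9 ± 2.72 CPM (SD, n = 3) for control and 8.75 ± 0.59 CPM (SD, n = 2) for knockout. Knockout 1 was at 39.9% and knockout 2 at 43.9% of the control mean. It fell by a log2 fold change of -1.25 ± 0.15 (SE), with a Benjamini-Hochberg adjusted p of 0.013 in edgeR. The gene lies on chromosome 2 (118598211 to 118641591, plus strand, mm10), and 0.0% of its 50-base words and exon bases are shared with other annotated genes. Leaving out each library in turn gave log2 fold changes of -1.33 to -1.14, and the adjusted p was 0.0677 without control 3. With the replicate number as a block the adjusted p was 0.0867 at a log2 fold change of -1.32.

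The mitotic cyclins and Cdk1 overlapped between the groups. Ccnb2, a cyclin that activates CDK1, stood at 7.38, 7.51, 6.99, 10.8 and 6.05 CPM, above the controls in knockout 1 and below them in knockout 2 (log2 fold change 0.21 ± 0.25, adjusted p = 0.64). Ccna2, cyclin A2 of S phase and G2, stood at 5.77, 4.92, 5.37, 5.84 and 2.97 CPM (log2 fold change -0.28 ± 0.29). Cdk1 itself stood at 4.11, 3.72, 3.25, 4.55 and 2.82 CPM (log2 fold change -0.01 ± 0.26). In each of these 3 genes knockout 1 was the highest library and knockout 2 the lowest.

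Ccnb1, cyclin B1, had the same order, at 2.39, 2.05, 1.96, 5.22 and 1.56 CPM, or 244.6% of the control mean in knockout 1 and 73.3% in knockout 2; 23.4% of its 50-base words occur in other transcripts, among them Ccnb1-ps. Bub1, the checkpoint kinase related to BUBR1, was below all controls in both knockouts, at 3.39, 3.03, 2.94, 2.14 and 0.997 CPM (log2 fold change -0.996 ± 0.36, adjusted p = 0.134). Plk1, the Polo kinase of mitotic entry, had 138, 113 and 95 reads in controls, 122 in knockout 1 and 0 in knockout 2, where the count allows up to 2.77% of the control mean. Of its 50-base words 10.4% occur in other annotated transcripts, among them Plk-ps1, and 7.1% of its exon bases overlap Gm44985. Aurka and Aurkb, the Aurora kinases, had log2 fold changes of 0.14 ± 0.22 and -0.26 ± 0.27.

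The 2 genes that work with the anaphase-promoting complex lay above all controls in both knockouts without passing the test. Cdc20, its activator, stood at 6.60, 7.18, 5.33, 9.13 and 7.62 CPM (log2 fold change 0.39 ± 0.18, adjusted p = 0.231). Ube2c, its ubiquitin-conjugating enzyme, stood at 3.68, 3.08, 3.75, 5.24 and 3.82 CPM (log2 fold change 0.37 ± 0.22, adjusted p = 0.342), and 22.8% of its exon bases overlap Tnnc2. With Cdt1, Pcna and Tyms these were the 5 of 42 genes (11.9%) with both knockouts above all controls, against 22.8% of all genes. Both knockouts lay below all controls in 11 (26.2%), against 22.5% of all genes.

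Genes of chromosome structure, spindle and cytokinesis (11 genes) had a median of 62.4% of the control mean in knockout 2 and 99.1% in knockout 1. The edgeR test called 0 of the 11, against 7.24% of all genes in either direction. DESeq2 called 2 of the 11 lower (Mki67 and Top2a), a larger share than the 9.24% of all genes. At an unadjusted p under 0.05 in edgeR, 3 were lower (27.3%, against 13.6% of all genes) and 0 higher (0.0%, against 12.8%). Mki67, the proliferation marker Ki-67, stood at 9.63, 10.7, 10.0, 7.10 and 4.40 CPM, below all controls in both knockouts (log2 fold change -0.81 ± 0.22, adjusted p = 0.0714). Top2a, the topoisomerase that untangles chromosomes, stood at 20.3, 20.5, 19.2, 15.8 and 8.17 CPM (log2 fold change -0.74 ± 0.26, adjusted p = 0.128), also with both knockouts below all controls and knockout 2 lowest. Tpx2, which builds spindle microtubules and activates Aurora A, stood at 10.1, 9.23, 8.24, 6.39 and 1.77 CPM (log2 fold change -1.17 ± 0.48, adjusted p = 0.175). In these 3 genes knockout 1 lay between the controls and knockout 2.

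Prc1, which bundles the central spindle, stood at 11.8, 10.7, 9.41, 13.3 and 6.64 CPM, with knockout 1 highest and knockout 2 lowest (log2 fold change -0.10 ± 0.28). Cenpf had 180, 158, 102, 171 and 40 reads, and the spindle motor gene Kif11 had 550, 398, 275, 323 and 123 reads. The survivin gene Birc5, the cytokinesis motors Kif20a and Kif23, the kinetochore motor Cenpe and the spindle gene Nusap1 had log2 fold changes from -0.38 for Cenpe to 0.10 for Birc5, with overlapping groups. Kif20a shares 29.3% of its exon bases with Cdc23.

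**Figure D2:**
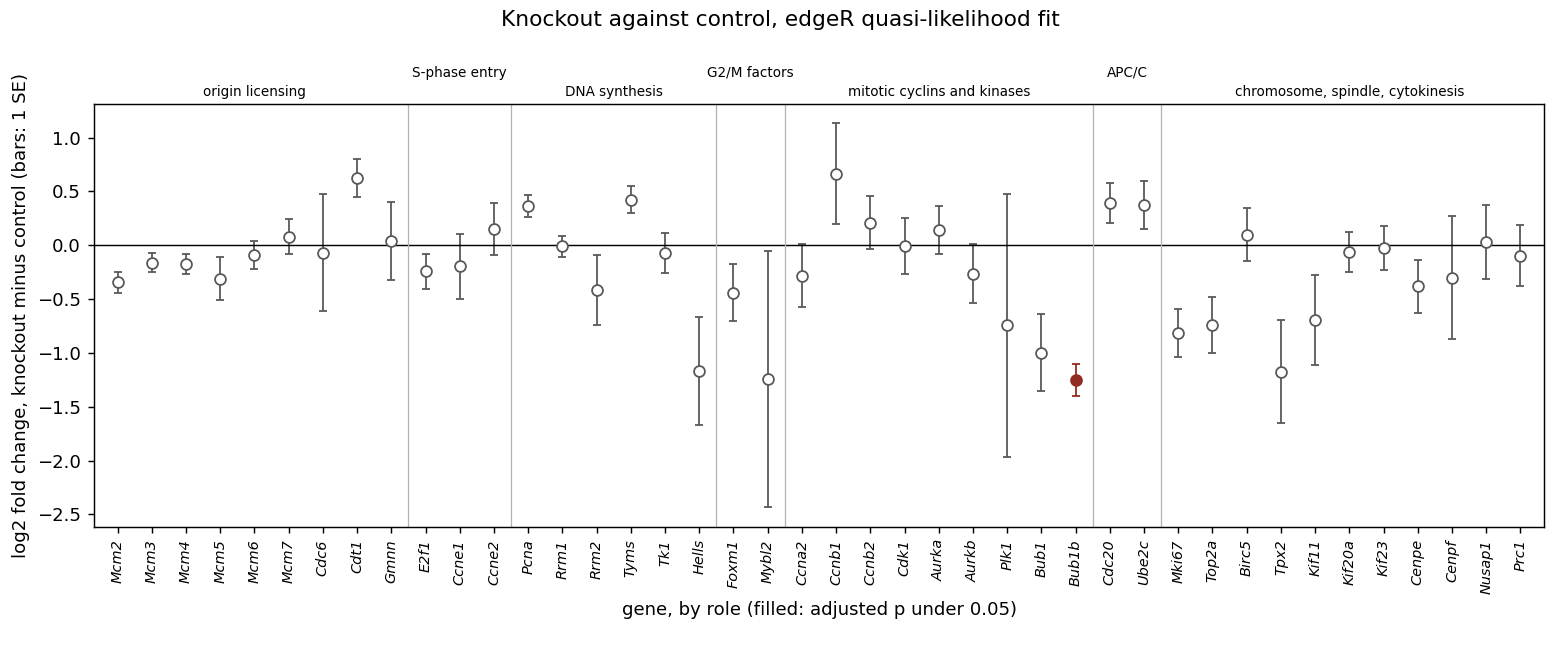
Log2 fold change, knockout minus control (vertical axis), of each of the 42 genes by role, with bars of 1 SE from the edgeR fit. The filled point, Bub1b at -1.25, is the gene past adjusted p 0.05, and the widest bars belong to Plk1 and Mybl2, which have 0 reads in knockout 2.

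The 2 knockout libraries differed from each other over these genes. Knockout 2 was below knockout 1 in 35 of the 42 genes (83.3%), against 51.0% of all genes tested. Over the 24 genes of G2 and mitosis the median level was 102.5% of the control mean in knockout 1 and 64.1% in knockout 2, and over the 18 of licensing, S-phase entry and DNA synthesis it was 103.4% and 88.1%. All genes tested had medians of 99.2% in both knockouts. Of the 42 genes, knockout 2 was below all controls in 31 (73.8%, against 37.1% of all genes) and knockout 1 in 12 (28.6%, against 35.4%). The 42 genes had summed levels of 584, 618 and 582 CPM in the controls, of 596 CPM in knockout 1 and of 494 CPM in knockout 2. The fibroblast and pericyte (214 and 101 CPM), erythroid (4.22 and 0.0344 CPM) and LEC marker sums were also lower in knockout 2 than in knockout 1. The T and NK cell (1.75 and 4.64 CPM), B cell, myeloid, leukocyte and blood endothelial sums were higher in knockout 2. Genes detected and the second principal component differed as well, and the part of any of these in this split was not tested.

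With 1 library each, knockout 1 and knockout 2 cannot be tested against each other. In the fit without knockout 1, in which knockout 2 is assumed to vary like the controls, 13 of the 42 genes were lower (31.0%, against 6.76% of all genes) and 1, Cdt1, was higher (2.38%, against 3.67%). The 13 were Bub1, Bub1b, Cenpf, Foxm1, Hells, Kif11, Mcm5, Mki67, Mybl2, Plk1, Rrm2, Top2a and Tpx2. In the fit without knockout 2, 1 gene was lower (Bub1b; 2.38%, against 5.67% of all genes) and 1 higher (2.38%, against 4.76%). The higher one was Ccnb1 (log2 fold change 1.28 ± 0.25, adjusted p = 0.0236, edgeR quasi-likelihood). The median log2 fold change of the 42 was -0.44 without knockout 1 and 0.04 without knockout 2.

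Among genes with 0 reads in knockout 2, Mybl2 and Plk1 had the most reads in the other libraries, by the minimums below. Of 11159 genes with at least 80 reads in each of the other 4 libraries, 2 had no read in knockout 2, and these were Mybl2 and Plk1. At a minimum of 50 reads there were 4 of 11771, with Cnmd and Ifit1bl1 added, and at 20 reads 24 of 13007. In each of the other 4 libraries, 0 or 1 gene had no read at any of these minimums, and none of the 42 genes did. The minimums were chosen after the values were seen. Low counts in knockout 2 were not limited to these genes. Of the other mitosis genes described below, Fbxo5 had 53, 44, 27, 68 and 0 reads and Ttk 74, 60, 44, 62 and 2. Kif4 had 197, 156, 118, 107 and 7 reads. In 7 of the 49 genes of that list, knockout 2 lay above all controls.

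**Figure D3:**
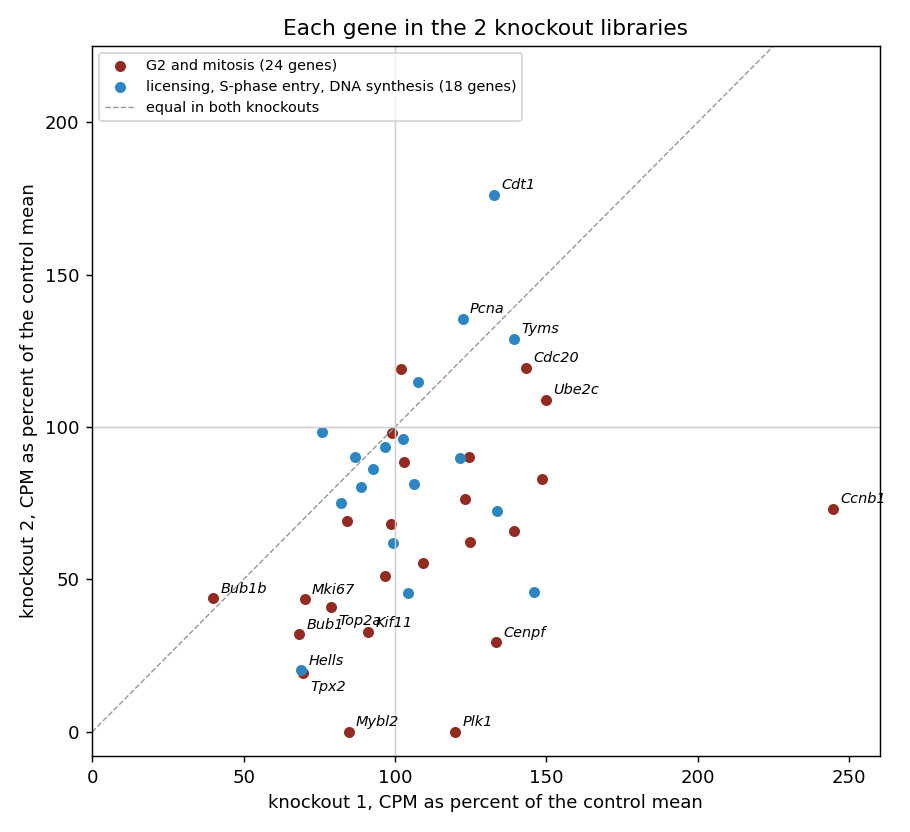
CPM in knockout 2 against CPM in knockout 1, each as percent of the control mean, for 24 genes of G2 and mitosis and 18 of licensing, S-phase entry and DNA synthesis. Most points lie below the dashed line of equality, and Bub1b is at about the same low level in both libraries (39.9% and 43.9%).

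Other genes of the cell cycle were taken from 5 lists of 138 genes, of which 137 passed the filter on low counts. By the edgeR quasi-likelihood test, 3 were higher (2.19%) and 5 lower (3.65%) in knockout, against the same 3.25% and 3.99% of all genes, with a median log2 fold change of -0.14. Among 11 tested CDK inhibitors and antiproliferative genes, 2 rose (18.2%) and 0 fell (0.0%). At an unadjusted p under 0.05, 3 were higher (27.3%, against 12.8% of all genes) and 1 lower (9.09%, against 13.6%). The lower one, Cdkn2b, stood at 15.35, 9.76, 11.6, 5.92 and 7.39 CPM, with both knockouts below all controls. Its log2 fold change was -0.88 ± 0.23 (edgeR, adjusted p = 0.0628), and DESeq2 called it lower. Cdkn1a, which encodes p21, an inhibitor of cyclin-CDK complexes, stood at 691, 769, 840, 1122 and 1344 CPM, above all controls in both knockouts. It rose by a log2 fold change of 0.69 ± 0.13 (edgeR with Benjamini-Hochberg adjustment, adjusted p = 0.0305), and its adjusted p was 0.0583 when exon length and GC were corrected by an offset. Cdkn1c, which encodes the related inhibitor p57, rose from a mean of 10.98 ± 0.943 to 19.3 ± 1.27 CPM (SD, n = 3 and 2; log2 fold change 0.82 ± 0.13, adjusted p = 0.0204, edgeR), at 10.1, 10.8, 12.0, 18.5 and 20.2 CPM. Cdkn1b, which encodes p27, stood at 6.45, 4.82, 4.79, 4.60 and 3.46 CPM and did not pass (log2 fold change -0.41 ± 0.23). Over the 11 genes the median log2 fold change was 0.09.

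Of 23 G1 cyclins, kinases, RB and E2F genes, 1 rose (4.35%, against 3.25% of all genes) and 1 fell (4.35%, against 3.99%). E2f8, an E2F family member that represses E2F targets, rose from 2.05 ± 0.549 to 5.59 ± 2.02 CPM, at 2.55, 2.15, 1.46, 7.01 and 4.16 CPM (log2 fold change 1.44 ± 0.32, adjusted p = 0.0471, edgeR). Its adjusted p was 0.0586 with library totals alone and 0.0508 with limma-voom. Tfdp2, a dimer partner of E2F proteins, stood at 43.1, 45.0, 41.5, 33.97 and 30.1 CPM. It fell from 43.2 ± 1.73 to 32.1 ± 2.72 CPM (log2 fold change -0.43 ± 0.10, adjusted p = 0.0472, edgeR). Ccnd1, cyclin D1, which links growth signals to CDK4 and CDK6, was abundant and overlapped between groups, at 396, 421, 486, 346 and 444 CPM (log2 fold change -0.14 ± 0.14).

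Of 42 other replication genes, 0 rose (0.0%, against 3.25% of all genes) and 3 fell (7.14%, against 3.99%), with a median of -0.11. Pole, the catalytic subunit of the leading-strand polymerase, stood at 18.9, 21.6, 20.3, 14.4 and 12.8 CPM. It fell from 20.3 ± 1.36 to 13.6 ± 1.08 CPM (log2 fold change -0.57 ± 0.12, adjusted p = 0.0407, edgeR). Dnmt1, the maintenance DNA methyltransferase, stood at 58.4, 66.4, 59.6, 37.95 and 46.7 CPM. It fell from 61.4 ± 4.32 to 42.3 ± 6.19 CPM (-0.54 ± 0.12, adjusted p = 0.0463, edgeR). Chaf1a, a histone chaperone of the replication fork, stood at 4.45, 4.855, 4.95, 2.30 and 2.67 CPM and fell from 4.75 ± 0.264 to 2.48 ± 0.257 CPM (-0.93 ± 0.20, adjusted p = 0.0408, edgeR). In all 3 both knockouts lay below all controls.

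Of 49 other mitosis genes, 0 rose (0.0%, against 3.25% of all genes) and 1 fell (2.04%, against 3.99%). Melk, a kinase gene transcribed with the mitotic set, stood at 3.82, 3.33, 3.31, 1.68 and 0.894 CPM (log2 fold change -1.44 ± 0.33, adjusted p = 0.0473, edgeR). This list showed the split between the knockouts as well: knockout 2 was below all controls in 34 genes (69.4%, against 37.1% of all genes) and knockout 1 in 12 (24.5%, against 35.4%), and the median levels were 72.9% and 102.5% of the control mean. The 42 other replication genes had medians of 89.3% in knockout 2 and 96.2% in knockout 1. Of them, 50.0% lay below all controls in knockout 2 and 33.3% in knockout 1. The 12 checkpoint and CDK phosphatase genes had medians of 63.8% and 83.9%, with 75.0% and 50.0% below all controls. By the edgeR test 0 of these 12 genes rose and 0 fell, against 3.25% and 3.99% of all genes (median log2 fold change -0.39). At an unadjusted p under 0.05, 1 of the 42 replication genes, 3 of the mitosis genes and 0 of the checkpoint genes were higher (2.38%, 6.12% and 0.0%, against 12.8% of all genes), and 8, 3 and 3 were lower (19%, 6.12% and 25.0%, against 13.6%). Over all 5 lists DESeq2 called 8 higher (5.84%, against 7.9% of all genes) and 13 lower (9.49%, against 9.24%). When control 1, control 2 or control 3 was left out, 0 of the 8 edgeR calls were left, and a block for the replicate number left 0 as well. The share of all genes called in these fits is not given. Whether these 8 genes lose calls more than others therefore cannot be read here. Control 3 has no knockout of its number, so the block takes it out of the contrast and leaves fewer degrees of freedom. The block is thus not independent of the fit without control 3. The length and GC offset ended the calls of Cdkn1a, Tfdp2, Pole, Dnmt1, Chaf1a and Melk, with Tfdp2 at a log2 fold change of -0.23.

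**Figure D4:**
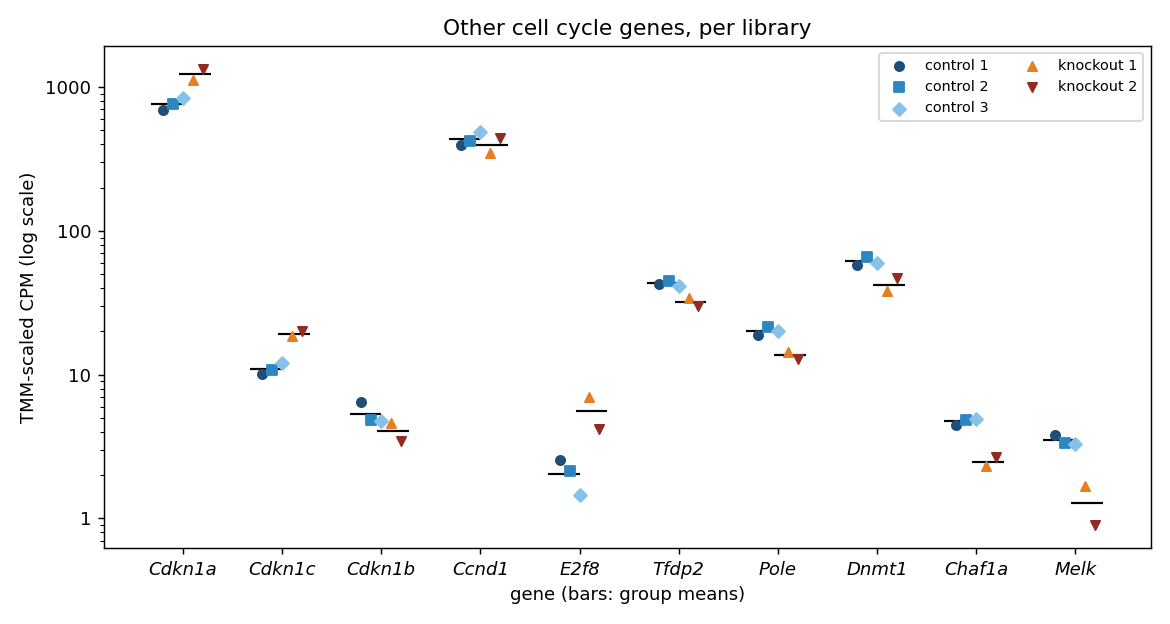
TMM-scaled CPM (vertical axis, log scale) of the 8 other cell cycle genes that passed the test, with Cdkn1b and Ccnd1, 1 point per library and a bar at each group mean. Cdkn1a, Cdkn1c and E2f8 lie above all controls in both knockouts, Tfdp2, Pole, Dnmt1, Chaf1a and Melk below them, and Ccnd1 overlaps.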

How the data were processed

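Messenger RNA was measured in 5 libraries of sorted LECs (4 ng of total RNA, SMART-Seq v4 cDNA with 10 cycles, Nextera XT with 12 cycles, single 50-base reads), per the labels' protocols. These kits do not mark strand, and amplified reads are not independent molecules. The authors deposited raw read counts per Ensembl gene with a column for each library, as the headers of the table show. Tools named in the submitters' processing notes are TopHat2 2.0.14, Bowtie2 2.1.0, HTSeq 0.6.1, with build mm10; the handling of multi-mapped reads is not given in the sources used here. Symbols, exon lengths and positions came from GENCODE M21 (27648 of 27843 genes matched). Shared 50-base words were counted over its transcripts, both strands.

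Counts were filtered with filterByExpr (minimum 10), scaled by TMM and tested with edgeR 4.0.16 (R 4.3.3; quasi-likelihood, robust, group only), adjusted over 15874 genes by Benjamini-Hochberg at 0.05. Standard errors were taken as |log2 fold change| over √F. Alternatives were RLE factors, library totals, no filter, 1 CPM in 2 libraries, DESeq2 1.42.0, limma-voom (limma 3.58.1), a replicate block, a loess offset (span 0.5) for exon length and transcript GC, and leaving out each library.

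The 42 genes and the lists were chosen with earlier results of these data known. Per-library values are given for genes past the threshold and the 4 most abundant of each role. Mcm5, Cdt1, Hells, Ccnb1, Bub1, Plk1, Kif11, Cenpf, Cnmd and Ifit1bl1 were added after their values were seen. From the other lists the called genes and Ccnd1 and Cdkn1a, Cdkn1b and Cdkn1c are named. Cdkn2b, Fbxo5, Ttk and Kif4 of these lists were added after their values were seen.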

Additional observations from a re-analysis of the deposited data

How the results depend on the processing

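Bub1b stayed lower in every setting run, from -1.33 to -1.14 on the log2 scale when libraries were left out, and lost its call without control 3 and with the replicate block. These losses are not independent, since the block takes control 3 out of the contrast. Genes of the 42 higher in knockout numbered 3 with DESeq2 and 0 to 1 without single libraries. Those lower numbered 2 without the filter on low counts (Mki67 added), 4 with DESeq2, 0 with the block and 0 to 13 without single libraries, 13 being without knockout 1. Other cell cycle genes higher numbered 8 with DESeq2, 0 with the block and 0 to 6 without single libraries. The offset ended the call of Cdkn1a, and library totals and limma-voom that of E2f8. Those lower numbered 2 with library totals alone, 13 with DESeq2, 0 with the block, 1 with the length and GC offset (Cdkn2b) and 0 to 22 without single libraries. The median over the 42 genes ran from -0.44 without knockout 1 to 0.036 without knockout 2. A fit without a knockout assumes that the lone one varies like the controls.

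Deviations from the group mean correlated at 0.05 for control 1 and knockout 1 and at -0.05 for control 2 and knockout 2, over 2 shared numbers. With 2 knockouts, the deviations of knockout 2 mirror those of knockout 1 by construction. These values therefore cannot settle whether replicate numbers pair the samples. The block reversed Gmnn (-0.145), Ccne1 (0.017), Birc5 (-0.026) and Nusap1 (-0.18). Gmnn was also negative with limma-voom (-0.034) and the offset (-0.011), and Nusap1 with limma-voom (-0.077). The offset made Rrm1 (0.16), Cdk1 (0.031), Kif23 (0.10) and Prc1 (0.020) positive, and Cdk1 was 0.0025 with library totals and 0.0018 with a minimum of 1 CPM.

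Leaving out single libraries changed the sign of 19 genes, with these log2 ranges: Mcm6 -0.30 to 0.085, Mcm7 -0.16 to 0.28, Cdc6 -1.14 to 0.53, Gmnn -0.47 to 0.41, Ccne1 -0.40 to 0.024, Rrm1 -0.066 to 0.046, Rrm2 -1.14 to 0.055, Ccna2 -0.85 to 0.12, Ccnb1 -0.46 to 1.28, Ccnb2 -0.27 to 0.57, Cdk1 -0.40 to 0.29, Plk1 -9.83 to 0.25, Birc5 -0.16 to 0.31, Kif20a -0.18 to 0.041, Kif23 -0.12 to 0.072, Cenpf -1.77 to 0.41, Nusap1 -0.61 to 0.47, Prc1 -0.69 to 0.32 and Ccnd1 -0.33 to 0.026. The -9.83 of Plk1 comes from 0 reads and is no measured size. The cause of these changes was not tested. Differences below the spread of 3 controls and 2 knockouts were not detectable.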
